A study of Homo sapiens with 18 samples.

Results

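The ERK feedback genes and ETV factors described here are 10 genes. They are the sprouty genes SPRY1, SPRY2 and SPRY4, the sprouty-related gene SPRED1, the MAP kinase phosphatases DUSP4, DUSP5 and DUSP6, and the ETS transcription factors ETV1, ETV4 and ETV5. They were taken by symbol from a table of 37550 rows, and no measured value of theirs entered that rule. The members were, however, chosen with earlier results of these data known, so counts of members called are descriptions. All 10 were in the table, and all 10 passed the filter on low values (at least 1 TPM in at least 2 libraries), as did 17033 genes in all. TPM is a unit of transcript abundance scaled for transcript length and for the total of the library, so levels of different genes can be set side by side.

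The libraries were 18 poly-A RNA libraries of H1, an established wild-type human pluripotent stem cell line, in 9 groups of 2 replicates that the series design calls distinct and biological. Undifferentiated cells (hPSC) were taken at day 0. All other cells spent the first day in a definitive ectoderm medium with Trametinib at 250 nM, an inhibitor of MEK, the kinase that activates ERK. That medium also held A8301, C59 and LDN193189, which inhibit TGF-beta receptors, WNT secretion and BMP receptors. Anterior neural ectoderm (aNE) then spent day 2 with A8301, LDN193189, C59 at 1 µM and the survival agent Thiazovivin. Posterior neural ectoderm (pNE) spent day 2 with A8301, LDN193189, Thiazovivin, FGF2 at 20 ng/mL, TTNPB at 50 nM, which activates retinoic acid receptors, and the tankyrase inhibitor XAV939 at 1 µM. The listed day-2 media name no MEK inhibitor. Cells of either origin were carried to day 4 in a forebrain medium (aNE_T, pNE_T), a midbrain medium (aNE_M, pNE_M) or a hindbrain medium (aNE_H, pNE_H). The forebrain medium of day 3 held XAV939, LDN193189 and FGF2 at 20 ng/mL, and the composition of the other day-4 media is not used here. Plating density was 37500 per cm2 for the day-2 groups. For day 4 it was 75000 per cm2 in the aNE-derived and 150000 per cm2 in the pNE-derived groups, so origin and density cannot be told apart there. FGF2, TTNPB and the replacement of C59 by XAV939 likewise cannot be told apart at day 2. All cells came from 1 line, and cells at day 1 were not analysed here.

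Growth factors such as the FGFs bind receptor tyrosine kinases at the cell surface and switch on a relay of RAS, RAF, MEK and ERK. Active ERK induces genes whose products damp the same relay. Sprouty and SPRED proteins act upstream, at the level of the receptor, RAS and RAF. Dual-specificity phosphatases remove the activating phosphates from ERK itself, DUSP6 mainly in the cytoplasm and DUSP4 and DUSP5 in the nucleus. ETV1, ETV4 and ETV5 form the PEA3 family of ETS factors, which carry FGF signals to target genes. Messenger RNA of several of these genes is widely used as a readout of FGF and ERK activity in embryos. FGF signalling is among the cues that give the neural plate posterior character.

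Promoter sequence is shown for SPRY1 and SPRY2, whose levels had the most similar profiles among the 45 pairs of members, and for ETV1, which ran against most of the others. RefSeq's promoter table (GRCh38.p14) held 14 windows for 6 of the 10 genes, and the windows below are the 250 bases before an annotated start with no exon of any gene in GENCODE 29. They are written 5′ to 3′ on the strand of the gene. SPRY1 is on the plus strand at chr4:123396545-123396794, SPRY2 on the minus strand at chr13:80341127-80341376 and ETV1 on the minus strand at chr7:13991426-13991675. Capitals mark GC boxes, GGGCGG or its reverse complement.
SPRY1: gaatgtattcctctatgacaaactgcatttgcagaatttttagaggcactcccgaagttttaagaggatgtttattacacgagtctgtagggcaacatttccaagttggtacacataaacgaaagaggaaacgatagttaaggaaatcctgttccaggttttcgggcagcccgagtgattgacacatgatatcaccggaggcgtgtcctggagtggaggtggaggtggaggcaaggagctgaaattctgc
SPRY2: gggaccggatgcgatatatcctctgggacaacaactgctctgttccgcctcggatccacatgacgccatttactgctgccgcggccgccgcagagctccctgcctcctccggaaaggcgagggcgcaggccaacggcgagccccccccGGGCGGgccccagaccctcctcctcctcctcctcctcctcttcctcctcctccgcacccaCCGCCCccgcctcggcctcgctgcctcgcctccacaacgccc
ETV1: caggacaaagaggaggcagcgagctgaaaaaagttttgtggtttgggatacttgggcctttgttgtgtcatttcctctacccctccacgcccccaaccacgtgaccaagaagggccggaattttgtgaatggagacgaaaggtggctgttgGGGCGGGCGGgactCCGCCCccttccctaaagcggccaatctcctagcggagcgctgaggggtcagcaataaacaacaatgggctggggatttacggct
The SPRY1 window held no GC box, the SPRY2 window held 2 and the ETV1 window 3, of which 2 overlap. Each window was searched on both strands for 3 strings: the ETS core CCGGAAG, the AP-1 site TGACTCA and the GC box GGGCGG. Over all windows of the 6 genes, 5 genes had a GC box, 1 had the ETS string and 0 had the AP-1 string. Counted by window, some of which overlap, these were 8, 1 and 0 of 14. Among 35116 windows of the same length in the table, 42.6% held the GC box, 8.52% the ETS string and 4.20% the AP-1 string. The ETS match lay before a second annotated start of SPRY1, at chr4:123398309-123398335 on the plus strand and within an annotated SPRY1 exon. The bases there are shown with the match in capitals.
SPRY1, second start: ccctccgcagCCGGAAGggggccgcgg

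Basic measures of the libraries are given as ranges, and their depth is unknown. Between 13686 and 14679 genes had at least 1 TPM, mitochondrial genes took 0.960% to 3.74% of TPM, and Pearson's r between replicates was 0.982 to 0.987 against at most 0.968 between groups. The stem cell list summed to 4771 to 4772 TPM in hPSC and 1604 to 1641 TPM in aNE. At day 2 the region lists followed the labels, with 999 to 1022 TPM of forebrain and 1.26 to 1.36 TPM of hindbrain markers in aNE, and 122 to 159 and 202 to 254 TPM in pNE. At day 4 the list of the medium was not the highest in 3 groups. The forebrain group pNE_T held 41.0 to 42.0 TPM of forebrain and 398 to 404 TPM of hindbrain markers. The midbrain group pNE_M held 38.8 to 40.1 TPM of midbrain and 604 to 619.9 TPM of hindbrain markers. The hindbrain group aNE_H held 122 to 162 TPM of forebrain and 88.0 to 91.9 TPM of hindbrain markers, with 4 of the 5 hindbrain genes listed at 0. In aNE_T, aNE_M and pNE_H the list of the medium was the highest of the 3 region lists. The day-4 groups are therefore named below for their medium, not for a regional identity. The midbrain groups also held markers of mesendoderm, which sum to 96.9 to 116 TPM in aNE_M and 15.4 to 16.1 TPM in pNE_M, and to 5.45 TPM or less in every library of the other groups. In aNE_M, MIXL1 was at 86.5 ± 12 TPM, EOMES at 16.5 ± 0.50 TPM and TBXT at 3.36 ± 0.91 TPM (SD, n = 2), and SOX17 was listed at 0. The part of such cells in the values of the midbrain groups was not tested. The neural list (SOX2, SOX1, PAX6, SOX3 and NES) changed as well. Its sum lay between 300 and 305 TPM for aNE_M libraries and between 359 and 408 TPM for aNE_H libraries. Undifferentiated cells had between 290 and 299 TPM, and aNE libraries between 797 and 822 TPM. The aNE_T libraries had at least 1209 TPM. For pNE the sum lay between 549 and 682 TPM. It was at most 344 TPM for pNE_M, at most 405 TPM for pNE_H and at least 929 TPM for pNE_T. In bulk RNA, fewer cells expressing a gene and less RNA per cell cannot be told apart, for these or for any values below.

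The 10 genes together were lowest in aNE, at 164 ± 13 TPM (SD, n = 2). The sum was 568 ± 18 TPM in hPSC, 764 ± 7.5 TPM in pNE, and between 730.4 and 1037 TPM on average in the 6 groups of day 4. In 7 of the 10 genes aNE was the lowest of the 9 groups: SPRY1, SPRY2, SPRY4, SPRED1, DUSP6, ETV4 and ETV5. The span between the highest and the lowest group mean was widest for SPRY4, 34.2-fold, and narrowest for SPRED1, 1.82-fold. It was 21.5-fold for DUSP4, 15.5-fold for ETV5, 14.04-fold for ETV4, 10.9-fold for DUSP6, 10.3-fold for SPRY2, 8.70-fold for SPRY1, 4.27-fold for ETV1 and 3.86-fold for DUSP5.

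**Figure D1:**
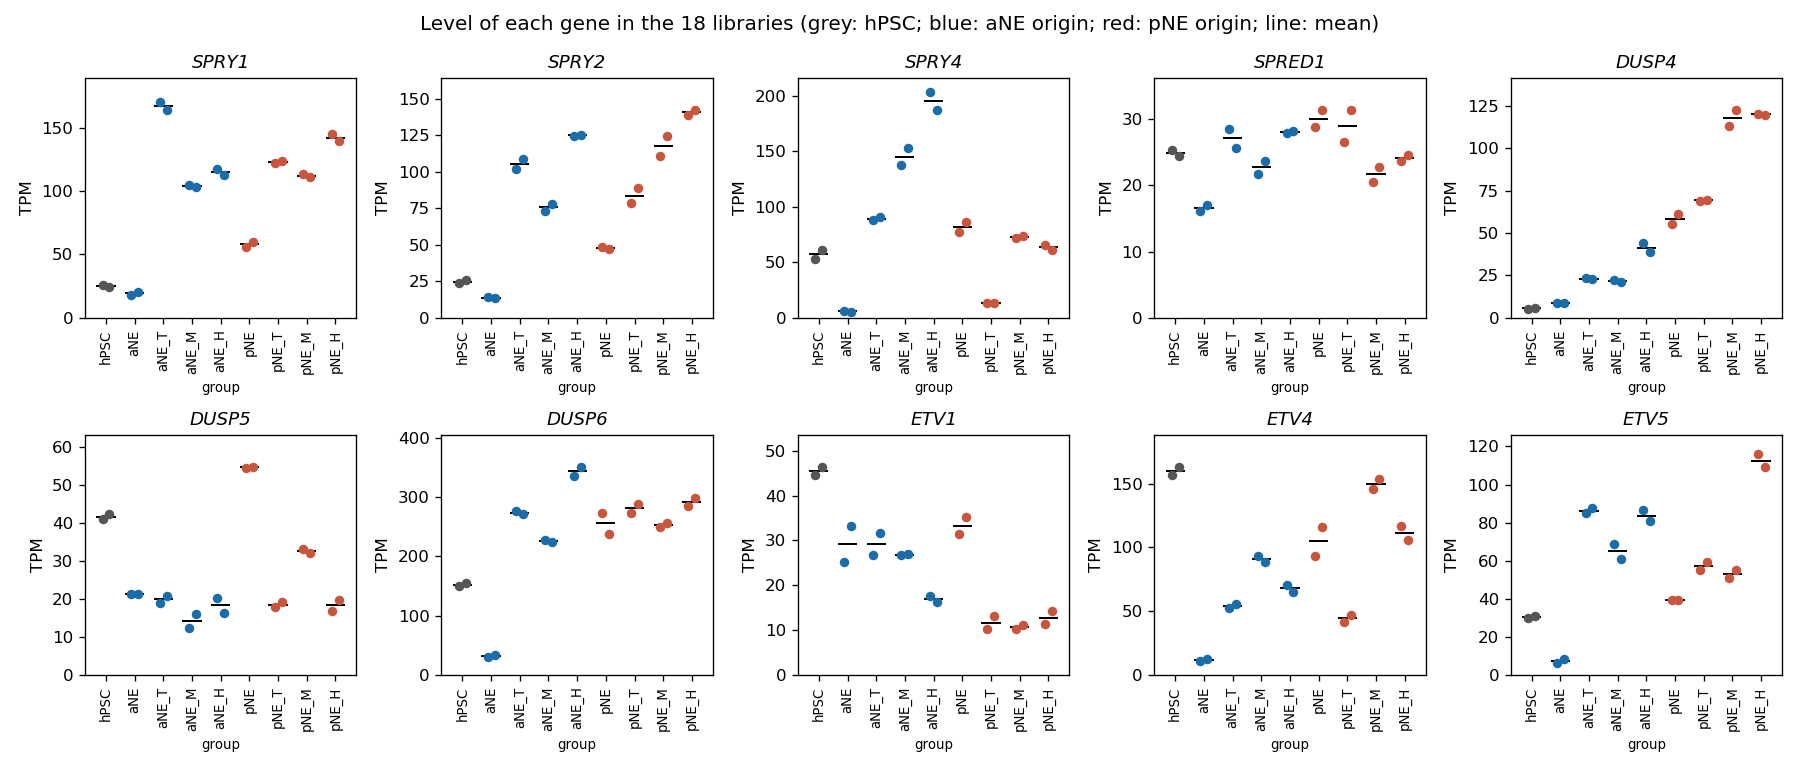
TPM of each of the 10 genes (vertical axis, own scale per gene, starting at 0) in the 9 groups (horizontal axis). Points are the 2 libraries of a group and lines their mean; hPSC is grey, aNE and its day-4 groups blue, pNE and its day-4 groups red. DUSP6 sits between 225 and 352 TPM in all 14 libraries of pNE and the day-4 groups, against 29.3 and 33.6 TPM in aNE.

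SPRY4 (GENCODE 29, GRCh38 chr5:142310427-142326455, minus strand), a sprouty protein that restrains RAS signalling, had the widest range of the 10. Its levels were 53.1 and 61.4 in the hPSC libraries, 6.395 and 5.03 in aNE and 77.5 and 86.0 TPM in pNE. At day 4 they were 88.2 and 90.6 TPM in aNE_T, 137 and 153 TPM in aNE_M and 203 and 188 TPM in aNE_H. In pNE-derived cells they were 13.01 and 13.2 TPM in pNE_T, 71.8 and 73.9 TPM in pNE_M and 65.3 and 61.5 TPM in pNE_H. From the highest to the lowest mean the order was aNE_H, aNE_M, aNE_T, pNE, pNE_M, pNE_H, hPSC, pNE_T and aNE, and no neighbours in it overlapped. In the forebrain medium, cells of pNE origin were thus low, next to aNE in the order, and cells of aNE origin were above every group of day 0 and day 2. SPRY4 shares its locus with the antisense gene SPRY4-AS1, and whether the quantification used the strand is not given in the sources used here.

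SPRY1 (chr4:123396795-123403760, plus strand) and SPRY2 (chr13:80335976-80340951, minus strand), the other members of the family listed here, shared a pattern that set day 4 apart from the earlier days. SPRY1 was at 25.6 and 24.0 in hPSC, 17.8 and 20.6 in aNE and 55.5 and 60.0 TPM in pNE. At day 4 it was at 170.4 and 164 TPM in aNE_T, 105 and 103 TPM in aNE_M, 118 and 113 TPM in aNE_H, 122 and 123 TPM in pNE_T, 113 and 111 TPM in pNE_M and 145 and 139.5 TPM in pNE_H. Every day-4 library lay above every library of day 0 and day 2. The highest group was aNE_T, followed by pNE_H, pNE_T, aNE_H, pNE_M and aNE_M, of which aNE_H and pNE_M overlapped. SPRY2 was at 23.5 and 25.7 in hPSC, 13.9 and 13.5 in aNE and 48.1 and 47.1 TPM in pNE. It reached 102 and 109 TPM in aNE_T, 73.0 and 77.9 TPM in aNE_M, 125 and 125 TPM in aNE_H, 78.5 and 88.8 TPM in pNE_T, 111 and 124 TPM in pNE_M and 139 and 142 TPM in pNE_H. For SPRY2 the hindbrain groups were the highest of each origin, and no neighbours in the order overlapped.

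SPRED1 (chr15:38252326-38357249, plus strand), which holds the RAS regulator neurofibromin at the membrane, was the most even of the 10. It was lowest in aNE, at 16.1 and 16.98 TPM, and the other 16 libraries lay between 20.5 and 31.5 TPM. The groups pNE, pNE_T, aNE_H and aNE_T overlapped in a chain at the top of its order, and hPSC, pNE_H, aNE_M and pNE_M in a chain below it.

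DUSP6 (chr12:89347232-89353271, minus strand), the cytoplasmic ERK phosphatase, was the most abundant member in 8 of the 9 groups; in hPSC it came second to ETV4. It was at 149 and 156 in hPSC, 29.3 and 33.6 in aNE and 274 and 238 TPM in pNE. In the aNE-derived groups it was at 277 and 272 TPM in aNE_T, 228 and 225 TPM in aNE_M and 337 and 352 TPM in aNE_H. In the pNE-derived groups it was at 274 and 289 TPM in pNE_T, 249 and 257 TPM in pNE_M and 286 and 298 TPM in pNE_H. At day 2, pNE was thus within the range of the day-4 groups: pNE_H, pNE_T, aNE_T, pNE and pNE_M each overlapped the next in the order. An antisense gene, AC024909.2, overlaps DUSP6 in the annotation.

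DUSP4, a nuclear phosphatase of ERK and other MAP kinases, differed by origin at day 2 and at day 4 alike. Its levels were 5.29 and 5.85 in hPSC, 8.65 and 8.59 in aNE and 55.5 and 61.2 TPM in pNE. Cells of aNE origin had 23.1 and 23.0 TPM in aNE_T, 22.1 and 21.2 TPM in aNE_M and 43.9 and 38.8 TPM in aNE_H. Cells of pNE origin had 68.9 and 69.6, 113 and 123 and 120.3 and 119.6 TPM in pNE_T, pNE_M and pNE_H. Every library of pNE origin lay above every library of aNE origin, day 2 included. The groups pNE_H and pNE_M overlapped, and no other neighbours did.

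DUSP5 (chr10:110497838-110511544, plus strand), a nuclear ERK phosphatase, was highest in pNE, followed by hPSC. It was at 54.4 and 54.9 TPM in pNE, 40.9 and 42.3 TPM in hPSC and 33.0 and 32.1 TPM in pNE_M. In aNE it was at 21.4 and 21.4 TPM. The remaining 10 libraries, those of aNE_T, aNE_M, aNE_H, pNE_T and pNE_H, lay between 12.3 and 20.9 TPM. Of these groups aNE_T, pNE_T, aNE_H and pNE_H overlapped in a chain.

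ETV4 (chr17:43527844-43579620, minus strand) and ETV5 (chr3:186046308-186110318, minus strand) are the members of the PEA3 family most tied to FGF signalling in the embryo. ETV4 was highest in undifferentiated cells, with 157 and 164 TPM, against 10.7 and 12.2 TPM in aNE and 93.6 and 116 TPM in pNE. At day 4 it was at 52.2 and 55.4 TPM in aNE_T, 92.9 and 88.2 TPM in aNE_M, 70.8 and 65.2 TPM in aNE_H, 41.4 and 47.1 TPM in pNE_T, 146 and 154 TPM in pNE_M and 117 and 106 TPM in pNE_H. In both origins the midbrain group was the highest of day 4 and the forebrain group the lowest. The groups pNE_H and pNE overlapped. ETV5 was at 30.0 and 31.0 in hPSC, 6.09 and 8.47 in aNE and 39.3 and 39.1 TPM in pNE. At day 4 it was at 85.1 and 87.4 TPM in aNE_T, 68.9 and 60.9 TPM in aNE_M, 86.5 and 80.9 TPM in aNE_H, 55.1 and 59.2 TPM in pNE_T, 50.6 and 55.1 TPM in pNE_M and 116 and 109 TPM in pNE_H. Every day-4 library of ETV5 lay above every earlier library, unlike ETV4. In the annotation ETV4 overlaps DHX8 on the other strand and ETV5 overlaps DGKG on its own strand, both of which are in the table.

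ETV1 (chr7:13891228-13991425, minus strand), the third PEA3 factor, was lower at day 4 in cells of pNE origin than in any other group. It was at 44.7 and 46.5 in hPSC, 25.3 and 33.2 in aNE and 31.5 and 35.2 TPM in pNE. Cells of aNE origin had 26.7 and 31.8 TPM in aNE_T, 26.7 and 27.0 TPM in aNE_M and 17.6 and 16.2 TPM in aNE_H. Cells of pNE origin had 10.1 and 13.05 TPM in pNE_T, 10.2 and 11.1 TPM in pNE_M and 11.2 and 14.3 TPM in pNE_H. The day-4 groups of pNE origin overlapped at the bottom of the order, and pNE, aNE_T, aNE and aNE_M overlapped in a chain below hPSC.

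The entry into each neural ectoderm was compared with hPSC. In aNE, DUSP6, SPRY4, ETV4 and ETV5 fell. In pNE, DUSP4 and SPRY1 rose and no member was called lower. All fold changes are on the scale of log2(TPM + 1) with the SE of a limma fit across all genes, which understates changes of low values. A gene was called changed where its Benjamini-Hochberg adjusted p was under 0.05 and its log2 fold change reached 1 in size. In aNE, 0 members were called higher and 4 of 10 lower, where 6.19% of all tested genes were called lower. ETV4 fell by 3.70 ± 0.10 (SE, adjusted p = 3.54e-11), to 0.0712 of its TPM in hPSC. SPRY4 fell by 3.12 ± 0.10 (adjusted p = 1.83e-10), DUSP6 fell by 2.24 ± 0.08 (adjusted p = 1.98e-10) and ETV5 fell by 1.94 ± 0.11 (adjusted p = 3.53e-08). The other 6 had adjusted p under the threshold and smaller differences, from -0.93 for DUSP5 to 0.55 for DUSP4, the only positive one. In a limma fit of the compared libraries alone, ETV1 and SPRY1 were above that threshold (adjusted p = 0.0549 and 0.0751). The median of all 10 was -0.87, against 0.06 over all tested genes. DUSP5 was called lower under median-ratio scaling, at -1.01.

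In pNE, 2 of 10 members were called higher than in hPSC, where 7.14% of all tested genes were. DUSP4 rose by 3.18 ± 0.08 (adjusted p = 1.73e-11), a 10.5-fold change in TPM, and SPRY1 by 1.19 ± 0.07 (adjusted p = 5.09e-08). The other 8 differences lay between -0.61 for ETV4 and 0.93 for SPRY2. The negative values were those of ETV4, with an adjusted p of 4.85e-04 and no overlap between the groups, and of ETV1, at -0.44 (adjusted p = 0.0358). In a limma fit of the compared libraries alone, ETV4 had an adjusted p of 0.0568.

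Set against each other at equal density, pNE and aNE were compared directly, at the stage that precedes the regional media. Of the 10 members, 8 were higher in pNE and 0 lower, where 2.37% of all tested genes were called higher. SPRY4 was 14.3-fold higher in TPM, with a log2 fold change of 3.63 ± 0.10 (adjusted p = 2.08e-10). ETV4 differed by 3.09 ± 0.10 (adjusted p = 7.51e-10) and ETV5 by 2.30 ± 0.11 (adjusted p = 2.42e-08). Among the phosphatases, DUSP6 differed by 2.98 ± 0.08 (adjusted p = 8.20e-11), DUSP4 by 2.62 ± 0.08 and DUSP5 by 1.31 ± 0.13 (adjusted p = 1.19e-05). SPRY1 and SPRY2 differed by 1.54 ± 0.07 and 1.73 ± 0.08. SPRED1 had a difference of 0.83 ± 0.10 (adjusted p = 7.53e-05), under the fold threshold. ETV1 had 0.19 ± 0.15 (adjusted p = 0.482), and its libraries overlapped between the groups. The members' median was 2.01, against -0.01 over all tested genes. The comparisons with hPSC share the hPSC libraries, and aNE and pNE each enter 2 of these 3 comparisons.

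**Figure D2:**
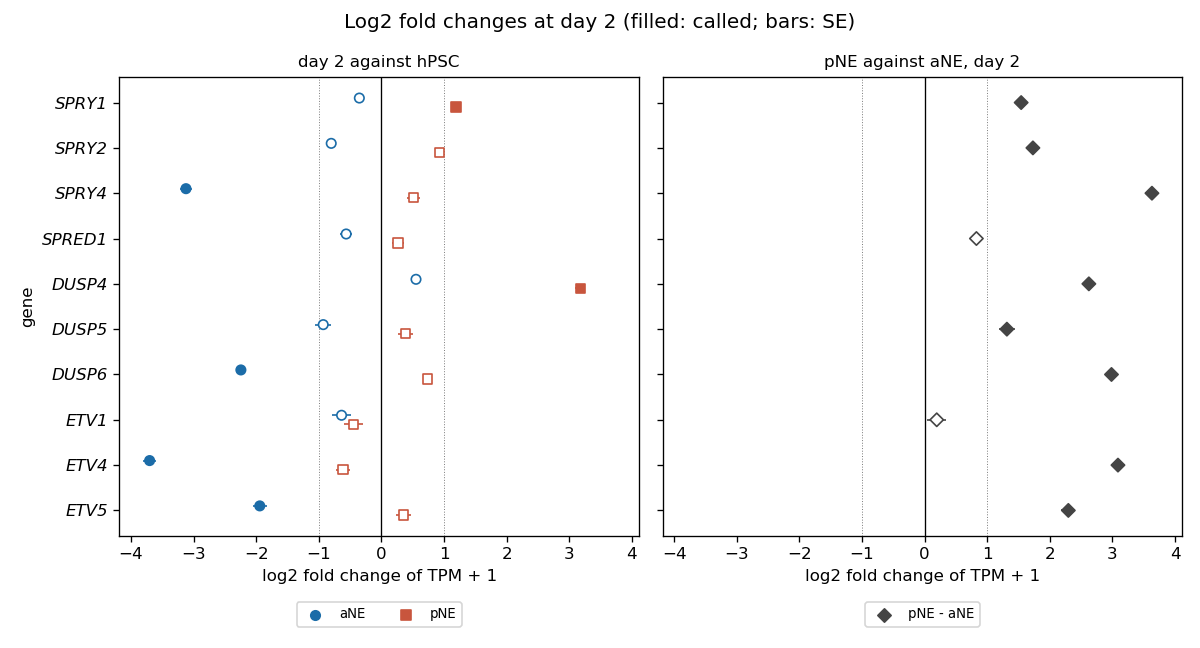
Log2 fold change of TPM + 1 for each gene at day 2 against hPSC (left; circles aNE, squares pNE) and for pNE against aNE (right); bars are SE and filled points were called. SPRY4, DUSP6, ETV4 and ETV5 lie left of -1 in aNE, and all but SPRED1 and ETV1 lie right of 1 in pNE against aNE.

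In cells of aNE origin, 7 members rose between day 2 and day 4 in each of the 3 media: SPRY1, SPRY2, SPRY4, DUSP4, DUSP6, ETV4 and ETV5. No member was called lower. The share of all tested genes called higher was 4.61%, 4.34% and 3.24% for forebrain, midbrain and hindbrain media. The share called lower was 4.42%, 7.63% and 6.83%. These comparisons share the 2 aNE libraries, so their calls are not independent. SPRY4 rose by 3.76 ± 0.10, 4.45 ± 0.10 and 4.88 ± 0.10 in the forebrain, midbrain and hindbrain media (adjusted p at most 6.13e-11). In TPM these are 15.6-fold, 25.4-fold and 34.2-fold. SPRY1 rose by 3.06, 2.38 and 2.53, and SPRY2 by 2.86, 2.38 and 3.10, in the same order of media. Among the phosphatases, DUSP6 rose by 3.09, 2.81 and 3.41, and DUSP4 by 1.32, 1.23 and 2.14. ETV5 rose by 3.41, 3.004 and 3.37, and ETV4 by 2.14, 2.88 and 2.47. For SPRED1 the differences were 0.68, 0.44 and 0.73, for DUSP5 -0.10, -0.57 and -0.22, and for ETV1 0.01, -0.11 and -0.75, all below the fold threshold. Of these, ETV1 in the hindbrain medium and DUSP5 in the midbrain medium lay below aNE with no overlap (adjusted p = 0.00230 and 0.00309). In limma fits of the compared libraries alone, their adjusted p was 0.0640 and 0.0810. The mesendoderm markers of aNE_M, at 96.9 to 116 TPM in sum against 0.727 to 0.94033 TPM in aNE, moved with the midbrain values, and their part in them was not tested. Of the 5 neural markers, 4 were called lower than in aNE with the midbrain medium (median -2.25). With the hindbrain medium 4 were called lower (median -2.40), and with the forebrain medium 1 was called higher and 0 lower. How far such a change of cell state enters the rises was not tested. The members' medians were 2.50, 2.38 and 2.50, against 0.00, -0.02 and -0.04 over all tested genes. Cells for day 4 were plated at a higher density than cells for day 2, and the part of density in these rises was not tested.

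Cells of pNE origin, which started from higher levels, changed in both directions. In the forebrain medium 5 of 10 members were called, 1 higher and 4 lower, where 10.2% of all tested genes were called. SPRY4 fell by 2.55 ± 0.10 (adjusted p = 1.87e-09), DUSP5 by 1.52 ± 0.13, ETV1 by 1.45 ± 0.15 and ETV4 by 1.22 ± 0.10, while SPRY1 rose by 1.07 ± 0.07. In the midbrain medium 3 of 10 were called, where 12.7% of all tested genes were. SPRY2 rose by 1.28 ± 0.08 and DUSP4 by 1.00 ± 0.08, and ETV1 fell by 1.55 ± 0.15. The DUSP4 call in the midbrain medium was lost without pNE replicate 1, at 0.94, or without pNE_M replicate 2, at 0.95. SPRY1, at 0.95, was called under median-ratio scaling, at 1.01, under quantile normalization and without pNE replicate 2, at 1.00 in both. In the hindbrain medium 6 of 10 were called, 4 higher and 2 lower, where 12.3% of all tested genes were. SPRY2 rose by 1.54 ± 0.08, ETV5 by 1.498 ± 0.11, SPRY1 by 1.28 ± 0.07 and DUSP4 by 1.03 ± 0.08, which was 0.96 and not called without pNE replicate 1. DUSP5 fell by 1.53 ± 0.13 and ETV1 by 1.33 ± 0.15. DUSP6, with the highest level of the 10, had differences of 0.14, -0.01 and 0.19 in the 3 media (SE 0.08), and SPRED1 had -0.05, -0.46 and -0.31. The members' medians were 0.04, 0.20 and 0.14.

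**Figure D3:**
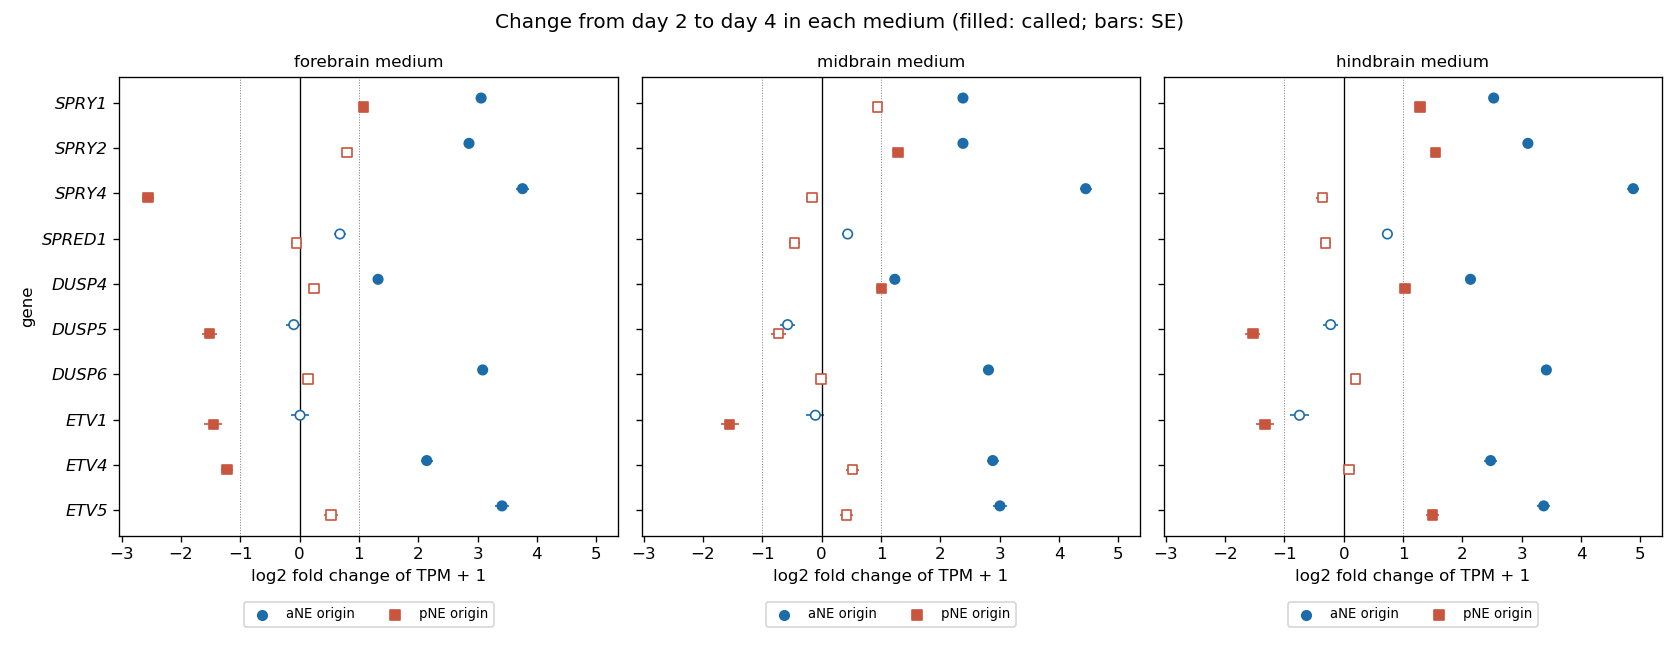
Log2 fold change of TPM + 1 from day 2 to day 4 for each gene in the forebrain, midbrain and hindbrain media; circles are cells of aNE origin, squares cells of pNE origin, bars SE, and filled points were called. The largest gap between the origins is that of SPRY4 in the forebrain medium, 3.76 against -2.55.

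The difference between these responses was tested as an interaction: the change of pNE-derived cells in a medium minus that of aNE-derived cells. It was negative for every member in every medium, but DUSP5 in the midbrain medium was at 0.02 without aNE_M replicate 2. In the forebrain medium 9 of 10 members were called lower, beside 3.97% of all tested genes; in the midbrain medium 7, beside 3.69%; and in the hindbrain medium 9, beside 3.92%. SPRY4 had -6.31 ± 0.15, -4.61 ± 0.15 and -5.24 ± 0.15 in the forebrain, midbrain and hindbrain media (adjusted p at most 8.45e-10). ETV4 had -3.37, -2.37 and -2.39, and DUSP6 -2.95, -2.82 and -3.22. The forebrain exception was SPRED1, at -0.73 ± 0.14. The midbrain exceptions were SPRED1, DUSP4 and DUSP5, at -0.90 ± 0.14, -0.23 ± 0.12 and -0.16 ± 0.18. The hindbrain exception was ETV1, at -0.58 ± 0.22. SPRED1 was called in the hindbrain medium at -1.04 ± 0.14, but not under median-ratio scaling, at -0.99, under quantile normalization, at -0.998, or without pNE replicate 2, at -0.98. The same number is the origin difference at day 4 minus that at day 2, so it contains the day-2 difference between pNE and aNE described above and is no separate measurement of it.

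Fewer members were called between the origins at day 4 than the 8 called at day 2. By adjusted p alone, 6 of 10 differed in each medium. Among all 17033 tested genes these were 3600, 2834 and 3724 in the forebrain, midbrain and hindbrain media. In the forebrain medium 3 of 10 were called, where 7.77% of all tested genes were; in the midbrain medium 3, where 5.74% were; and in the hindbrain medium 2, where 6.83% were. DUSP4 was higher in cells of pNE origin in each medium, by 1.54 ± 0.08, 2.39 ± 0.08 and 1.52 ± 0.08 (adjusted p at most 2.57e-08). SPRY4 was lower in cells of pNE origin, with -2.68 ± 0.10 in the forebrain medium (adjusted p = 9.65e-10) and -1.61 ± 0.10 in the hindbrain medium (adjusted p = 1.38e-07). In the midbrain medium SPRY4 had -0.98 ± 0.10, just under the threshold, and was called without aNE_M replicate 1, at -1.06, or without pNE_M replicate 2, at -1.003. ETV1 had -1.27 ± 0.15 in the forebrain medium and -1.25 ± 0.15 in the midbrain medium, both called, and -0.39 ± 0.15 (adjusted p = 0.0945) in the hindbrain medium. DUSP5 was called higher in the midbrain medium, at 1.16 ± 0.13. That call was lost without aNE_M replicate 1, at 0.98, and in a fit of the 4 compared libraries alone, at 1.16 with an adjusted p of 0.0532. The signs of SPRY4 and of DUSP4 at day 2 were both positive, so SPRY4 changed sign between day 2 and day 4 and DUSP4 kept it. The other 6 members had differences of at most 0.72 in size at day 4, that of ETV4 in the midbrain medium. DUSP6 had 0.04 ± 0.08, 0.16 ± 0.08 and -0.24 ± 0.08 in the 3 media.

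**Figure D4:**
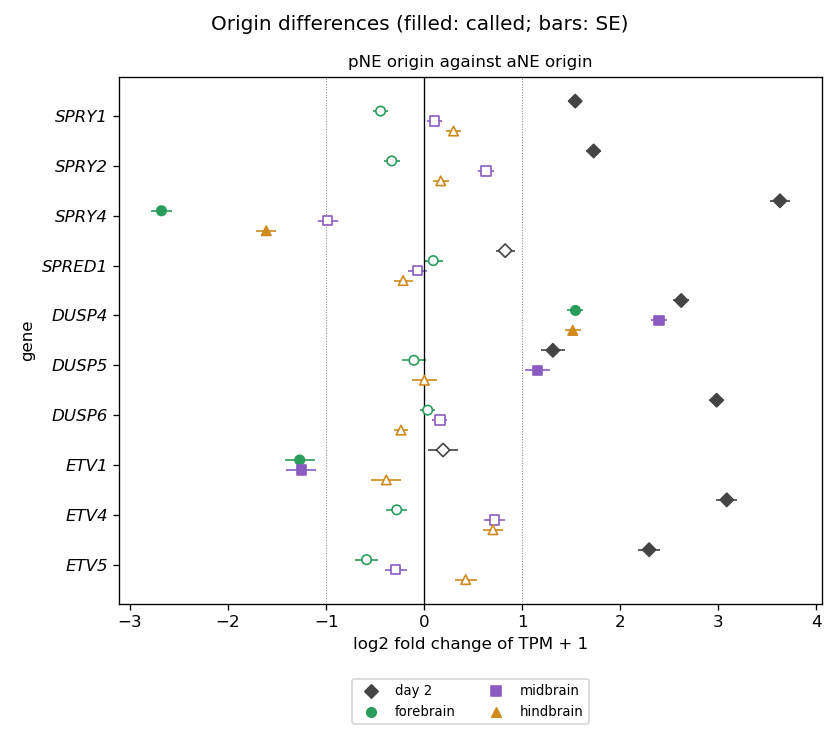
Log2 fold change of TPM + 1 of cells of pNE origin against cells of aNE origin for each gene at day 2 (diamonds) and at day 4 in the forebrain (circles), midbrain (squares) and hindbrain (triangles) media; bars are SE and filled points were called. DUSP4 is right of 1 at all 4 points, and SPRY4 crosses from 3.63 at day 2 to -2.68 in the forebrain medium.

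The media themselves were compared within each origin, with the forebrain medium as the base. Of the members, SPRY4 and ETV4 separated the media most, and did so in cells of pNE origin. In cells of aNE origin 0 members were called between the midbrain and forebrain media by limma, where 10.1% of all tested genes were called. Without the fold threshold, 7 members passed by adjusted p alone and 8 at an unadjusted p under 0.05. Of all 17033 tested genes, 5538 passed by adjusted p alone and 7021 at an unadjusted p under 0.05. Values ranged from -0.68 for SPRY1 to 0.74 for ETV4. Between the hindbrain and forebrain media 1 member was called, SPRY4, higher by 1.12 ± 0.10 (adjusted p = 5.29e-06), where 1.78% of all tested genes were called higher. In cells of pNE origin SPRY4 was higher in the midbrain than in the forebrain medium by 2.39 ± 0.10 and ETV4 by 1.74 ± 0.10. These were the 2 members called, beside 3.31% of all tested genes called higher. In the hindbrain medium SPRY4 was higher by 2.19 ± 0.10 and ETV4 by 1.31 ± 0.10, again the 2 members called, beside 1.65%. ETV5 had 0.97 ± 0.11 there and was called under median-ratio scaling, at 1.03, quantile normalization, at 1.01, and without pNE_H replicate 2 or pNE_T replicate 2, at 1.01 and 1.02.

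Within each family, the share of the summed TPM of its 3 genes differed between groups. SPRY4 made up 53.6% of sprouty TPM in hPSC, 14.8% in aNE and 43.7% in pNE, and 44.7% in aNE_M and 44.9% in aNE_H. In pNE_T it made up 5.98%, and SPRY1 55.9%. The sprouty sum was 219 ± 8.3 TPM in pNE_T and 187 ± 8.4 TPM in pNE (SD, n = 2), with no overlap between libraries. SPRY1 and SPRY2 made up 30.9% and 25.5% of the sum in pNE and 55.9% and 38.1% in pNE_T. DUSP6 made up 86.4%, 86.3% and 85.2% of phosphatase TPM in the aNE-derived groups and 76.2%, 62.7% and 67.9% in the pNE-derived groups. DUSP4 made up 7.28%, 8.25% and 10.2% in the first and 18.8%, 29.2% and 27.9% in the second. Of the ETV factors, ETV1 made up 60.9% in aNE, where the sum was 47.9 ± 8.3 TPM, and between 5.01% and 19.3% in every other group. ETV4 had the largest share in hPSC, at 67.8%, in pNE, at 58.999%, and in the midbrain groups, at 49.7% in aNE_M and 70.2% in pNE_M. ETV5 had the largest share in the forebrain groups, at 51.0% in aNE_T and 50.6% in pNE_T, and in aNE_H, at 49.7%. In pNE_H the shares of ETV5, 47.6%, and ETV4, 47.0%, overlapped between libraries. These shares are descriptions and were not tested.

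**Figure D5:**
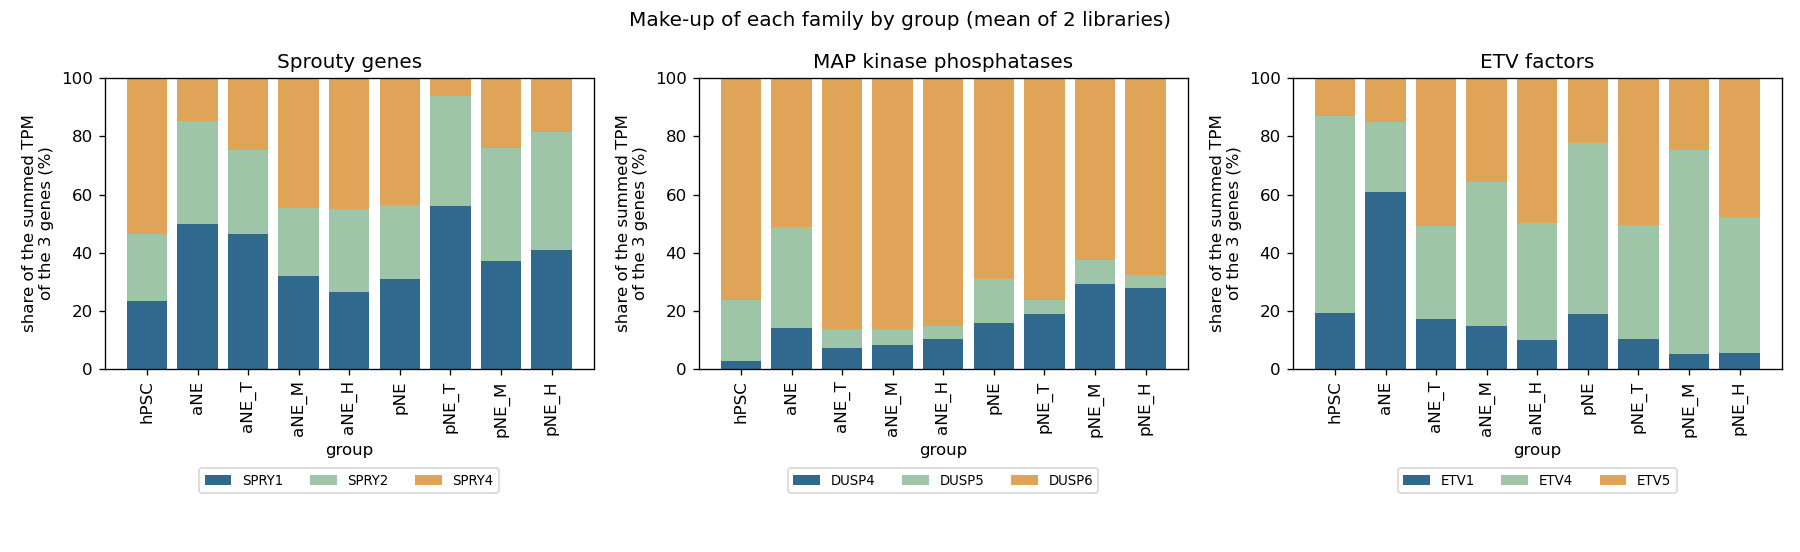
Share in percent (vertical axis) of the summed TPM of each family of 3 genes in the 9 groups (horizontal axis), as the mean of 2 libraries. SPRY4 is at 5.98% of sprouty TPM in pNE_T, and ETV1 takes 60.9% of ETV TPM in aNE.

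Other genes of the pathway were taken from lists that name no member. The 21 genes of the core cascade, which include adaptors such as FRS2 and GRB2, had 0 genes called between pNE and aNE by limma, with 5 at an unadjusted p under 0.05, and a median of -0.02. Of all 17033 tested genes 3.85% were called there, and 4395 had an unadjusted p under 0.05. At most 2 of the 21 were called in any comparison. Those were aNE and pNE against hPSC, where 13.5% and 12.9% of all tested genes were called. Counts this small do not set these 21 genes apart from all tested genes. KSR1, a scaffold of the cascade, was at 22.3 ± 0.070 in hPSC, 49.2 ± 4.2 in aNE and 71.3 ± 5.9 TPM in pNE (SD, n = 2). Of 18 other ERK response and feedback genes, 5 were higher and 2 lower in pNE than in aNE, with a median of 0.10 against 2.01 for the members. Of all tested genes, 2.37% were called higher and 1.48% lower. IL17RD, a membrane antagonist of FGF signalling also known as SEF, had 9.99 ± 0.35 TPM in aNE against 63.7 ± 3.4 TPM in pNE, a log2 fold change of 2.56 ± 0.08 (adjusted p = 2.89e-10). SPRED2, a relative of SPRED1, was at 14.1 ± 2.1 and 67.4 ± 11 TPM, and was higher in pNE by 2.18 ± 0.15. EGR1, an immediate early gene, had 15.5 ± 0.26 TPM in aNE against 3.06 ± 0.36 TPM in pNE, the opposite direction (-2.03 ± 0.17, adjusted p = 2.92e-06).

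From day 2 to day 4 in cells of aNE origin, 9 of these 18 genes were higher and 2 lower in the forebrain medium, 6 and 7 with the midbrain medium and 5 and 4 with the hindbrain medium. Of all tested genes, 4.61%, 4.34% and 3.24% were called higher and 4.42%, 7.63% and 6.83% lower, in the same order. The medians of the 18 genes were 0.80, -0.05 and 0.51, each below that of the members. IL17RD rose in each medium, by 4.08 ± 0.08, 3.77 ± 0.08 and 3.81 ± 0.08, and IER3, an immediate early gene, reached 127 ± 0.26 TPM in aNE_T from 12.7 ± 0.20 TPM in aNE. MYC went the other way in the midbrain medium, by -3.10 ± 0.21. In cells of pNE origin 2 of the 18 were higher and 3 lower in the forebrain medium, 3 and 5 with the midbrain medium and 4 and 4 with the hindbrain medium. Of all tested genes, 4.68%, 4.87% and 4.47% were called higher there and 5.56%, 7.85% and 7.80% lower. DUSP1, a stress-inducible MAP kinase phosphatase, rose from 6.87 ± 0.094 TPM in pNE to 84.8 ± 6.6 TPM in pNE_T, where SPRY4 and DUSP5 fell. FOSL1, an AP-1 subunit, had -2.32 ± 0.15 in that medium (adjusted p = 9.19e-08).

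Of 7 other MAP kinase phosphatases, of which DUSP1 and DUSP2 are also among the 18 genes above, 0 were called between pNE and aNE by limma, with 3 at an unadjusted p under 0.05. Of 14 other ETS factors, 1 was higher and 1 lower: ELK3, which acts with serum response factor, by 1.12 ± 0.14, and ETS2, a relative of the members that ERK phosphorylates, by -1.39 ± 0.10. Of the FGF ligands and receptors tested, 3 of 11 were higher and 1 lower in pNE. Between pNE and aNE, 3.85% of all tested genes were called, 2.37% higher and 1.48% lower. At an unadjusted p under 0.05 there were 4395 of 17033. FGFR1, the main FGF receptor of the early neural plate, was at 255 ± 9.4 in hPSC, 718 ± 31 in aNE and 641 ± 73 TPM in pNE. FGFR3 was at 11.3 ± 3.2, 178 ± 2.1 and 147 ± 27 TPM in these groups. Both receptors were thus higher in aNE than in hPSC (1.49 ± 0.09 for FGFR1 and 3.89 ± 0.18 for FGFR3). DUSP6, SPRY4, ETV4 and ETV5 fell in the same comparison. Of the 11 FGF ligands and receptors tested, 4 were called higher there and 1 lower, and the lowest value was -3.80. Among all tested genes 7.36% were called higher and 6.19% lower. At day 4, 3 of the 11 were called higher and 2 lower in cells of pNE origin in the forebrain medium. With the midbrain medium these were 3 and 3, and with the hindbrain medium 3 and 4. Of all tested genes, 3.79%, 3.19% and 3.92% were called higher and 3.97%, 2.55% and 2.91% lower, in the same order. The ligands named next were higher in cells of aNE origin, and the largest log2 fold changes the other way were 3.25, 2.22 and 2.73. FGF8 had 71.2 ± 8.9 TPM in aNE_T against 1.45 ± 0.36 TPM in pNE_T. FGF17 and FGF19 were at 80.2 ± 8.3 and 67.1 ± 0.44 TPM in aNE_M and at 26.0 ± 3.9 and 9.59 ± 1.4 TPM in pNE_M. The mesendoderm markers named above were also highest in aNE_M.

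The likeness of profiles was described over the 9 group means of log2(TPM + 1), with no test. SPRY1 and SPRY2 were the most alike pair of members, at r = 0.965, followed by DUSP6 and ETV5, at 0.938. DUSP4 and ETV1 were the most opposed, at -0.829. Against the other members, DUSP6 had the highest median r, 0.728, and ETV5 had 0.663, while DUSP5 had -0.050 and ETV1 -0.403. Among 10885 other genes with a mean of at least 5 TPM, the 5 closest to the members' mean profile were SDHAP4 (r = 0.893), C2orf76 (0.886), TRIB2 (0.884), IL17RD (0.879) and HIGD1A (0.858). IL17RD spanned 9.99 TPM in aNE to 186 TPM in pNE_H, and TRIB2 11.4 TPM in aNE to 110.3 TPM in aNE_T. The closest single gene was DHRS7B for SPRY1 (0.983), RXYLT1 for SPRY2 (0.967), JMJD6 for SPRY4 (0.916), STIL for SPRED1 (0.951), AFF3 for DUSP4 (0.970), PGM2 for DUSP5 (0.936), C18orf25 for DUSP6 (0.904), ADH5 for ETV1 (0.970), PSMC2 for ETV4 (0.908) and CMC2 for ETV5 (0.950). The points share the same 9 groups and the same libraries, and the search was over many genes and few points.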

How the data were processed

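RNA of 18 libraries was measured as TPM, an abundance scaled for transcript length and library total. The authors deposited 1 table of TPM values for all 18, with no read counts, so depth per library is unknown and no counting interval can be given. The submitters' processing notes name bcl2fastq, FastQC, Trim Galore, kallisto, deepTools and the build hg38. The annotation, the strand setting and the role of each tool are not given in the sources used here. Per the labels, RNA was selected on poly-T beads and primed with random hexamers, which sets no depth but leaves out RNA without a poly-A tail. All 18 columns were matched to samples by name.

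Values were tested as log2(TPM + 1) with limma 3.58.1 in R 4.3.3, with 1 mean per group over all 18 libraries, a mean-variance trend, two-sided tests and Benjamini-Hochberg adjustment over 17033 genes that reached 1 TPM in 2 or more libraries. Calls needed an adjusted p under 0.05 and a log2 fold change of 1 or more in size. Interactions were contrasts in the same fit. The code was tested on simulated data. All 10 members are named; of other lists, at most 3 called genes with the largest change per comparison could be named, where the higher group reached 5 TPM, besides markers. The members and lists were chosen with earlier results of these data known. Positions are from GENCODE 29 and promoters from RefSeq GRCh38.p14, whose table held no window for DUSP4, DUSP5, ETV4 and ETV5. A comparison of protein sequences was not made here. Alternatives were another pseudocount (0.1), no filter or a filter at 5 TPM, scaling by median ratios, a replicate block, quantile normalization, fits restricted to the libraries compared, calls by adjusted p alone and leaving out each library.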

Additional observations from a re-analysis of the deposited data

Results flagged for a closer look

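The change from day 2 to day 4 differed between cells of pNE and of aNE origin, by an interaction tested with limma (adjusted p under 0.05 and a difference of at least 1 on the log2 scale), for 25 of 30 combinations of member and medium. In each of the 25 the change was lower in cells of pNE origin, which says nothing of the level there. Of all tested genes, 3.97%, 3.69% and 3.92% were called lower in the forebrain, midbrain and hindbrain media. In the forebrain medium the differences were -6.31 for SPRY4, -2.06 for SPRY2, -1.99 for SPRY1, -3.37 for ETV4, -2.88 for ETV5, -1.46 for ETV1, -2.95 for DUSP6, -1.42 for DUSP5 and -1.08 for DUSP4. In the midbrain medium they were -4.61 for SPRY4, -1.44 for SPRY1, -1.10 for SPRY2, -2.58 for ETV5, -2.37 for ETV4, -1.45 for ETV1 and -2.82 for DUSP6. In the hindbrain medium they were -5.24 for SPRY4, -1.56 for SPRY2, -1.24 for SPRY1, -1.04 for SPRED1, -2.39 for ETV4, -1.87 for ETV5, -3.22 for DUSP6, -1.31 for DUSP5 and -1.11 for DUSP4. The SPRED1 call was lost under median-ratio scaling, at -0.99, and under quantile normalization, at -0.998. Without pNE replicate 2 its value was -0.98. All these differences share the 4 libraries of day 2 and contain the day-2 difference between pNE and aNE. Plating density differed with origin at day 4. For ETV1 in the forebrain and midbrain media, the difference came with a fall in cells of pNE origin and with values of 0.01 and -0.11 in cells of aNE origin. For DUSP6 it came with a rise in cells of aNE origin and values near 0 in cells of pNE origin.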

How the results depend on the processing

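Of 190 fold changes, 87 were called, and none of the 87 changed sign under any alternative run; 4 of them lost the call under at least 1 alternative and are named in the report with their values. Counts moved by more than 1.5 times only where calls were made by adjusted p alone, without the fold threshold: 10 members for aNE and 10 for pNE against hPSC, 6, 6 and 6 for pNE against aNE origin in the forebrain, midbrain and hindbrain media, 8 and 8 for pNE_T and pNE_M against pNE, 7 and 7 for aNE_M and aNE_H against aNE_T, and 6 and 5 for pNE_M and pNE_H against pNE_T. The gap arises from the fold threshold alone. Many of all 17033 tested genes also passed by adjusted p alone. In the same order, these were 7073 and 6538 against hPSC and 3600, 2834 and 3724 between the origins. They were 5721 and 6037 against pNE, 5538 and 4625 against aNE_T, and 4851 and 3097 against pNE_T. Replicate numbers did not pair the samples: over 36 pairs of groups, deviations of same-numbered libraries had a median correlation of 0.0023 and at most 0.0762. With the replicate block, counts were unchanged for every comparison, such as 8 for pNE against aNE. Of the 103 uncalled fold changes, 17 took the other sign under at least 1 alternative, 31 values in all; their reported values were at most 0.16 in size (adjusted p at least 0.522). Under median-ratio scaling these were ETV1 in aNE_T against aNE at -0.0069, DUSP6 in pNE_M against pNE at 0.058, ETV5 in aNE_H against aNE_T at 0.010 and DUSP5 in pNE_H against pNE_T at 0.039. Under quantile normalization they were SPRED1 in pNE_M against aNE_M at 0.0030, ETV1 in aNE_T against aNE at -0.045, DUSP6 in pNE_M against pNE at 0.015 and DUSP5 in pNE_H against pNE_T at 0.070. The other changes of sign came from leaving out 1 library. Over all left-out libraries, SPRED1 ranged from -0.023 to 0.21 in pNE_T against aNE_T, -0.14 to 0.0034 in pNE_M against aNE_M, -0.17 to 0.063 in pNE_T against pNE and -0.017 to 0.13 in aNE_H against aNE_T. DUSP6 ranged from -0.0021 to 0.075 in pNE_T against aNE_T and -0.11 to 0.090 in pNE_M against pNE. DUSP5 ranged from -0.14 to 0.15 in pNE_H against aNE_H, -0.27 to 0.023 in aNE_H against aNE_T, -0.13 to 0.097 in pNE_H against pNE_T and -0.33 to 0.018 in the midbrain interaction. ETV1 ranged from -0.18 to 0.20 in aNE_T against aNE, -0.30 to 0.083 in aNE_M against aNE, -0.23 to 0.0061 in aNE_M against aNE_T, -0.27 to 0.068 in pNE_M against pNE_T and -0.038 to 0.30 in pNE_H against pNE_T. ETV4 ranged from -0.066 to 0.24 in pNE_H against pNE, and ETV5 from -0.092 to 0.0036 in aNE_H against aNE_T. No scaling moved the median of all genes by more than 0.1. With 2 libraries per group, a left-out library leaves 1, which is assumed to vary like the other groups, and unknown depth limits what can be said of low values.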
